A study of Mus musculus with 19 samples.

Results

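Mice lacking methionine adenosyltransferase 1A were compared with wild-type mice for the transcripts of the circadian clock in liver. The clock genes were the 10 listed as Bhlhe40, Rora, Per1, Per2, Dbp, Tef, Nr1d1, Nr1d2, Arntl and Cry1, found by gene symbol in the platform annotation. Of these 10, 8 had a probe on the arrays, and Arntl and Cry1 are not analysed here. The 8 genes were read by 10 probes, with a pair of probes each for Per1 and Per2, and all 10 probes passed the filter on dim signals, among 10831 genes and unnamed probes tested and 45281 probes in all.

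Liver RNA came from 19 mice aged 10 months, with 1 Illumina bead array per animal. The groups were WT mice given placebo (8 mice), MAT1A KO mice given placebo (6 mice) and MAT1A KO mice given S-adenosylmethionine, or SAMe (5 mice), all treated for 8 weeks. Mat1a encodes the liver enzyme that makes SAMe, the main methyl donor of the cell, and no WT mice given SAMe were among the samples, so an effect of SAMe in the presence of Mat1a cannot be read. The labels give neither the SAMe dose and route, nor the deleted exons, nor the sex of the mice. The time of day at which livers were taken and the feeding state are not in the labels either, so no level here can be placed on the daily cycle.

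The circadian clock of liver is a transcriptional loop in which the activators CLOCK and ARNTL bind E-box elements and switch on the Per and Cry genes, whose proteins return to repress the activators. An interlocking loop sets ROR activators against the REV-ERB repressors, encoded by Nr1d1 and Nr1d2, on a shared response element. The PAR bZIP factors DBP and TEF pass the rhythm on to metabolic genes of hepatocytes, and BHLHE40, also called DEC1, competes for E-boxes and also answers to feeding, hypoxia and hormones.

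RefSeq start-site windows, from 250 bases before to 50 bases after the gene start on build GRCm38.p6, matched 8 of the 10 listed genes, with 11 windows in all, and Bhlhe40 and Per2 had none in the table used. The windows of 5 genes compared below are shown, chosen to hold examples with and without an E-box, 5′ to 3′ on the strand of the gene, with any E-box (CACGTG) or its variant (CACGTT, which reads AACGTG on the other strand) in capitals.
Per1, chr11:69098699-69098998, plus strand: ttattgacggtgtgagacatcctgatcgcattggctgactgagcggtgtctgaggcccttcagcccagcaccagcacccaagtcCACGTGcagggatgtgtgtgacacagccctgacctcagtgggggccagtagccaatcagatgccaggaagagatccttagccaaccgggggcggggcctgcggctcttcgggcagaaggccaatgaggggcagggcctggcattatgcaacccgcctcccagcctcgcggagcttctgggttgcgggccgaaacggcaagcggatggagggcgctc
Tef, chr15:81811164-81811463, plus strand: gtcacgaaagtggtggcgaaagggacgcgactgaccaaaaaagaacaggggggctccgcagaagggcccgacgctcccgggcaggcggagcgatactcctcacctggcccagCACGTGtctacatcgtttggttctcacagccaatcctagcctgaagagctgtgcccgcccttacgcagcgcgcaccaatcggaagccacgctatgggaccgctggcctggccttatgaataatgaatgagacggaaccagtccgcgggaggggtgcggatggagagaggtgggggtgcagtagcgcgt
Nr1d1, chr11:98775328-98775627, minus strand: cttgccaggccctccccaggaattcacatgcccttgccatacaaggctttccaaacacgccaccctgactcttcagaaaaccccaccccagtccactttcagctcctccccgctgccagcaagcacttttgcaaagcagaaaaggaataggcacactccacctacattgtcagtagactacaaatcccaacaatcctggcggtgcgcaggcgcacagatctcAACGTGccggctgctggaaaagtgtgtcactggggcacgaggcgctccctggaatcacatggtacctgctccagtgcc
Rora, chr9:68653536-68653835, plus strand: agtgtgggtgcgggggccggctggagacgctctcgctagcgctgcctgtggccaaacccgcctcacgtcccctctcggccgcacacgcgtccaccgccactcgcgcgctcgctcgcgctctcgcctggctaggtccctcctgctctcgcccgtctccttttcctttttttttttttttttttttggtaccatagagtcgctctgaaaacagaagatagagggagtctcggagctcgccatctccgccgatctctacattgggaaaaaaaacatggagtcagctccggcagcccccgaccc
Dbp, chr7:45704997-45705296, plus strand: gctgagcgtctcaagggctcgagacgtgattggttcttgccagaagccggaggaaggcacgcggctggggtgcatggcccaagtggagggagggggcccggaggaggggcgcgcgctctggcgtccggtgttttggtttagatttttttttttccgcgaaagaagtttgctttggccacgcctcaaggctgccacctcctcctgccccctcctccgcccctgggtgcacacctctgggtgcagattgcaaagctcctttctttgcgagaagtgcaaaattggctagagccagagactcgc
The E-box lay 166 bases before the start of Per1 and 138 bases before the start of Tef in the windows shown, and the variant lay 28 bases before the start of Nr1d1 on the opposite strand. The windows of Rora and Dbp held neither form, and nor did those of Nr1d2 and of the second start of Per1, which are not printed. Of 32851 windows of the same length, 7.15% held the E-box and 4.68% the variant. The D-box, searched on both strands as TTATGTAA and TTACGTAA, and the ROR element, searched as TAGGTCA, were in none of the windows printed here, against 0.938%, 0.119% and 2.61% of all windows. These matches describe letters in a window and were not tested as sites.

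Values below are log2 intensities after background correction and quantile normalization. Differences between groups, with standard errors (SE), 95% intervals and Benjamini-Hochberg adjusted p-values over all 10831 features, come from limma, and a gene was said to rise or fall at an adjusted p under 0.05. Pearson correlations between arrays of 1 group ran from 0.9659 to 0.9904, and 25.5% to 31.8% of probes were detected per array. Mat1a, the targeted gene, stood at 12.12 ± 0.14 in WT placebo (SD, n = 8), 9.52 ± 0.31 in KO placebo (n = 6) and 9.64 ± 0.12 in KO SAMe (n = 5), a 6.04-fold fall in KO placebo against WT placebo with an adjusted p of 2.6e-13. For the 7 hepatocyte markers measured, Alb and Ttr among them, intensities were summed on each array and then put on the log2 scale. The log2 of the sum was 14.34 to 14.71 in WT placebo, 14.52 to 14.78 in KO placebo and 14.54 to 14.63 in KO SAMe. In whole liver, fewer cells of a type and less RNA per cell cannot be told apart.

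Arrays stood apart in 2 ways that touch the clock genes. In the first, 5 arrays, 4 of KO placebo (replicates 1 to 4) and 1 of WT placebo (replicate 1), had raw median signals of 93.6 to 100, against 75.1 to 85.8 on the other 14, and are called here the bright-background arrays. In the second, in the deposited raw table all KO placebo arrays lie in columns 1 to 9, with 3 WT placebo arrays (replicates 1 to 3), and all KO SAMe arrays lie in columns 10 to 19, with 5 WT placebo arrays (replicates 4 to 8). The sources used here do not say what the background or the column order stands for. KO placebo and KO SAMe share no column set, so after a block for it their difference rests on the WT arrays that span both sets. The split at column 10 was chosen after the data were seen, where the KO placebo columns end.

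**Figure D1:**
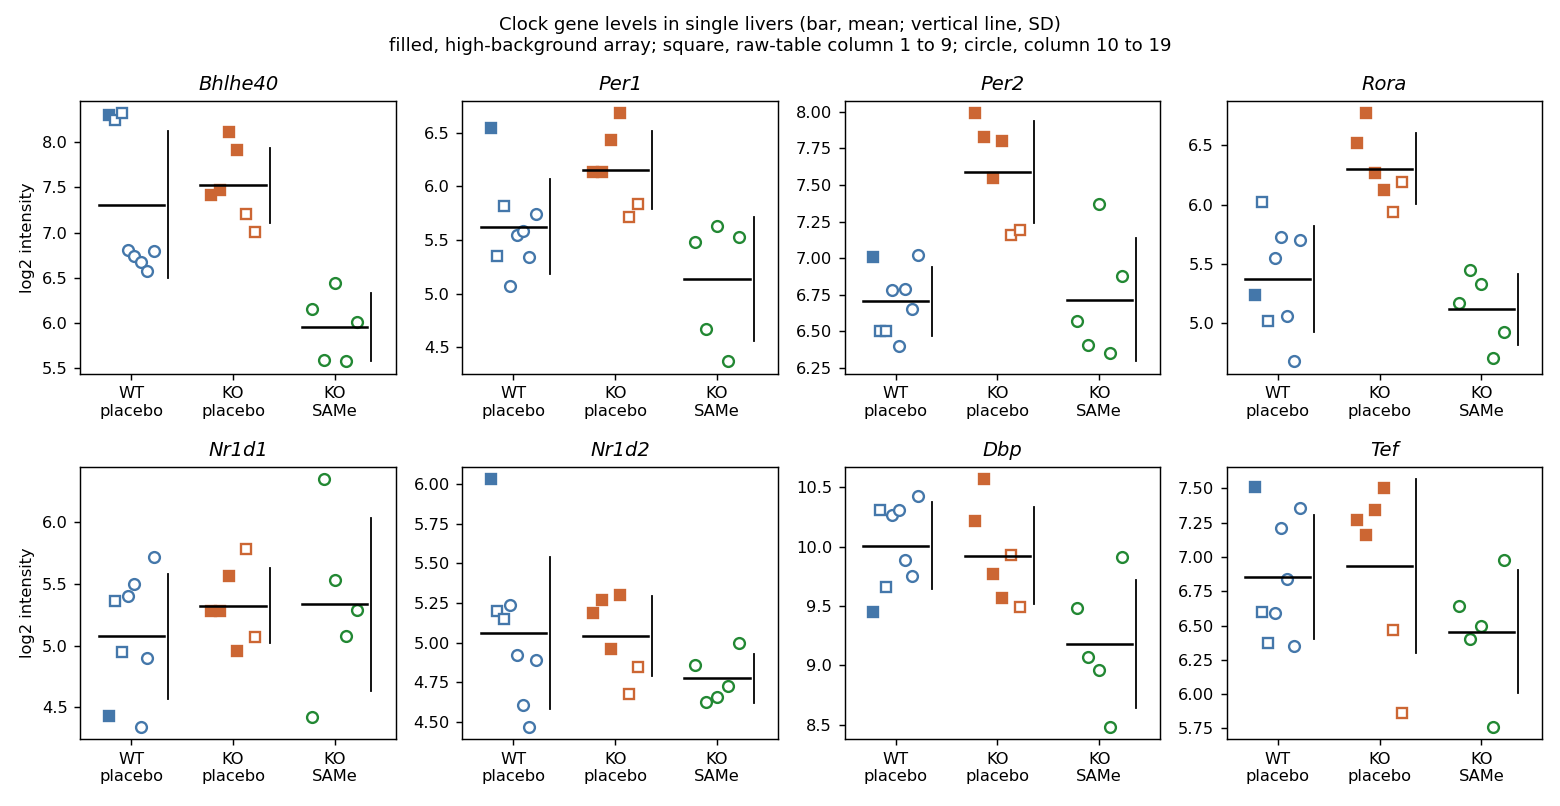
Log2 intensity of the 8 clock genes (brighter probe for Per1 and Per2) in each liver of WT placebo, KO placebo and KO SAMe mice, with the mean as a horizontal bar and the SD as a vertical line; vertical axes differ between panels. Filled symbols are bright-background arrays, squares are columns 1 to 9 and circles columns 10 to 19 of the raw table. Per2 in KO placebo, 7.16 to 7.99, lies above every WT placebo value, and Bhlhe40 in WT placebo falls into values near 8.29 and near 6.72.

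KO placebo was first compared with WT placebo, which asks what loss of Mat1a does in untreated liver. Rora and Per2 rose, by 1.9-fold and 1.84-fold, and none of the 8 clock genes fell. Per1 was higher by 1.44-fold without passing the test, and Dbp, Tef, Nr1d1, Nr1d2 and Bhlhe40 differed by at most 1.19-fold in either direction. The count of 2 called among 8 stood beside 40.2% of all features called in this comparison, and 19.8% called higher, against 25% of the clock genes, both of them higher. Their median difference was 0.23 on the log2 scale, against 0.01 over all features tested.

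Rora encodes RORα, the activator of the ROR element that drives Arntl. Its log2 level in WT placebo ran from 4.68 through a median of 5.39 to 6.02, and in KO placebo from 5.94 through 6.23 to 6.77. Only the highest WT liver, replicate 2, reached into the KO placebo range. The difference was 0.93 (SE 0.18, 95% interval 0.55 to 1.31, adjusted p = 0.00029, limma). Blocking on the background set gave 0.85 (adjusted p = 0.0052, in a fit that called 36.2% of features), and blocking on the column set gave 0.88 (adjusted p = 0.0079).

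Per2, a core repressor of the CLOCK and ARNTL activators, had log2 levels of 6.40 to 7.02 in WT placebo, with a median of 6.72, and of 7.16 to 7.99 in KO placebo, with a median of 7.67. Every KO placebo liver lay above every WT placebo liver, a separation that 16.6% of all features showed in this comparison. The difference was 0.88 (SE 0.16, 95% interval 0.54 to 1.21, adjusted p = 0.00015, limma). The dimmer Per2 probe gave 0.86 (adjusted p = 0.00027 over probes), with KO placebo livers at 6.56 to 7.53 and WT placebo livers at 5.97 to 6.66. Blocked on background set the Per2 difference was 0.60 (adjusted p = 0.0073), and blocked on column set 0.92 (adjusted p = 0.0025). Within KO placebo, Per2 averaged 7.79 on the 4 bright-background arrays and 7.18 on the other 2, which is also the split by ID letter. The part of array background or ID letter in the Per2 difference was not tested further.

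Per1, the other Per repressor and a gene that glucocorticoids also induce, ran from 5.07 through a median of 5.57 to 6.54 in WT placebo and from 5.71 through 6.13 to 6.68 in KO placebo. The highest WT value belonged to the bright-background array, and the other 7 WT livers lay at or below 5.82. The difference of 0.53 (SE 0.22, 95% interval 0.07 to 0.98) had an adjusted p of 0.06. Blocked on background set it was 0.11 (adjusted p = 0.72), and the dimmer Per1 probe gave 0.28 (adjusted p = 0.26 over probes).

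Bhlhe40 was the clock gene with the widest spread among WT placebo livers, with an SD of 0.82 against 0.24 to 0.50 for the other 7. WT replicates 1, 2 and 3 stood at 8.30, 8.25 and 8.32, while replicates 4 to 8 stood at 6.81, 6.74, 6.68, 6.58 and 6.80. The 3 high livers are the 3 WT arrays in columns 1 to 9, with no value between 6.81 and 8.25. Across all arrays the column set term for Bhlhe40, columns 10 to 19 minus columns 1 to 9, was -1.57 (SE 0.21). It is given as a description, without a test, since the column split was chosen after these values were seen. The same term for the other 7 clock genes ran from -0.63 for Nr1d2 to 0.32 for Dbp.

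KO placebo livers had Bhlhe40 levels of 7.42, 7.47, 8.11, 7.91, 7.21 and 7.01. Over all arrays their difference from WT placebo was 0.21 (SE 0.29, 95% interval -0.39 to 0.82, adjusted p = 0.62). Within columns 1 to 9 alone, all 6 KO placebo livers lay below all 3 WT livers and the difference was -0.77 (adjusted p = 0.016, limma), in a fit that called 30.2% of all features. Blocked on column set it was -0.77 by construction (95% interval -1.19 to -0.35, adjusted p = 0.0057), since all KO placebo arrays lie in 1 column set. That fit called 32.1% of features and counted 2 clock genes risen and 1 fallen. The split was chosen after the Bhlhe40 values were seen, so both p-values are given as a description and decide nothing. The share of all features that separate within columns 1 to 9 was not computed.

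Dbp and Tef, the output factors, did not pass the test in this comparison. Dbp was 10.01 ± 0.37 in WT placebo (SD, n = 8) and 9.92 ± 0.41 in KO placebo (n = 6), with a 95% interval of the difference from -0.51 to 0.35. Tef was 6.85 ± 0.46 and 6.93 ± 0.63, with an interval from -0.43 to 0.59. Tef differed within KO placebo along array background, which there is also the split by ID letter. The 4 bright-background KO placebo livers held 7.16 to 7.50 and the other 2 held 6.47 and 5.86. The background term, bright minus other arrays, was 0.99 for Tef (adjusted p = 0.023) and 0.69 for Nr1d2 (adjusted p = 0.029), the clock genes among the 2.23% of features called by it.

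The REV-ERB genes were dim. Nr1d1 was detected on 6 of 8 WT placebo, 6 of 6 KO placebo and 4 of 5 KO SAMe arrays, at 5.07 ± 0.50, 5.32 ± 0.31 and 5.34 ± 0.70. Its KO placebo minus WT placebo interval ran from -0.26 to 0.75. Nr1d2 stood at 5.07 ± 0.48 in WT placebo, 5.04 ± 0.25 in KO placebo and 4.78 ± 0.15 in KO SAMe, with an interval from -0.38 to 0.34 for KO placebo minus WT placebo. Nr1d2 lies on chromosome 14 with Mat1a, with 84 of the 287 measured genes of that chromosome between them.

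On the 14 arrays without bright background, where KO placebo is left with 2 livers, none of the 8 clock genes passed in this comparison at the adjusted threshold, and 2 had an unadjusted p under 0.05, in a fit that called 18.3% of features. Rora then differed by 0.67 (adjusted p = 0.1) and Per2 by 0.51 (adjusted p = 0.11). The labels' animal IDs end in a letter that is K for all 8 WT mice and for no KO placebo mouse. A fit with the letter links these groups only through KO SAMe replicates 2 and 4, with letter K, and replicate 3. That replicate has letter G, as do KO placebo replicates 5 and 6. With that letter as a term the Rora difference was 0.44 (adjusted p = 0.74) and the Per2 difference -0.52 (adjusted p = 0.46).

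**Figure D2:**
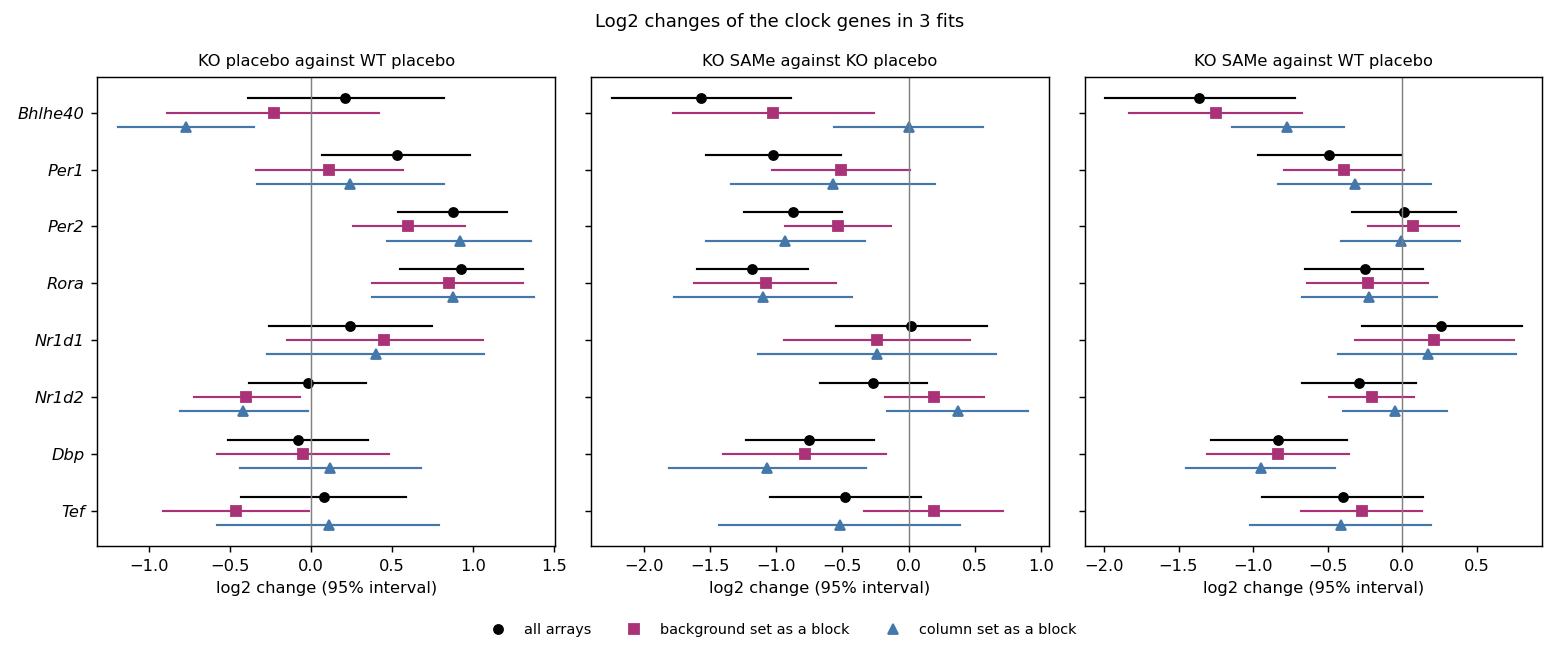
Log2 difference of the 8 clock genes in the 3 comparisons, with 95% intervals, from the fit over all arrays (black) and from the fits blocked on background set (magenta) and on column set (blue). The Rora interval lies above 0 in all 3 fits of KO placebo against WT placebo, and the Bhlhe40 difference between KO SAMe and KO placebo goes from -1.57 to 0.00 with the column block.

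KO SAMe was then compared with KO placebo, which asks what 8 weeks of SAMe did in mice without Mat1a. In all, 5 clock genes fell: Bhlhe40 by 2.96-fold, Rora by 2.27-fold, Per1 by 2.02-fold, Per2 by 1.83-fold and Dbp by 1.68-fold, and none rose. Tef and Nr1d2 were lower, by 1.39-fold and 1.2-fold, and Nr1d1 was level at 1.01-fold, all without passing the test. Of all features 18.5% were called in this comparison and 7.69% were called lower. The median difference of the 8 clock genes was -0.81 on the log2 scale, against 0 over all features tested. The clock genes were chosen with earlier results of these data known, so this count and median are a description of them. This comparison shares its KO placebo livers with the one above, so values that were high in KO placebo enter both.

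Rora in the 5 KO SAMe livers was 5.17, 5.45, 5.33, 4.71 and 4.93, all below the lowest KO placebo liver at 5.94. The difference was -1.18 (SE 0.20, 95% interval -1.6 to -0.76, adjusted p = 0.00066, limma). Blocked on background set it was -1.08 and Rora was the 1 clock gene that still passed (adjusted p = 0.016), in a fit that called 9.26% of features and 4.45% lower. Blocked on column set it was -1.10 (95% interval -1.77 to -0.43, adjusted p = 0.086).

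Per2 in KO SAMe was 6.57, 6.41, 7.37, 6.35 and 6.88. Replicate 3 lay inside the KO placebo range of 7.16 to 7.99 and the other 4 lay below it. The difference was -0.87 (SE 0.18, adjusted p = 0.0024) and -0.85 on the dimmer probe (adjusted p = 0.004 over probes). It was -0.53 blocked on background set (adjusted p = 0.084) and -0.93 blocked on column set (95% interval -1.53 to -0.33, adjusted p = 0.095).

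Per1 in KO SAMe was 5.48, 4.67, 5.63, 4.37 and 5.53, with 4 of 5 arrays detected, and all 5 lay below the lowest KO placebo liver at 5.71. The difference was -1.02 (SE 0.25, 95% interval -1.53 to -0.51, adjusted p = 0.0066), and the dimmer probe gave -0.62 (adjusted p = 0.048 over probes). The Per1 difference was -0.51 blocked on background set (adjusted p = 0.21) and -0.57 blocked on column set (adjusted p = 0.43).

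Bhlhe40 in KO SAMe was 6.16, 5.59, 6.44, 5.58 and 6.01, all below the lowest KO placebo liver at 7.01. Bhlhe40, Rora and Per1 were the 3 clock genes whose groups did not overlap here, which 8.97% of all features showed, and 3.81% with KO SAMe lower. The Bhlhe40 difference was -1.57 (SE 0.33, 95% interval -2.24 to -0.89, adjusted p = 0.0025). The WT livers of columns 10 to 19, at 6.72 ± 0.09 (SD, n = 5), lay below those of columns 1 to 9, at 8.29 ± 0.04 (n = 3). Blocked on column set, which subtracts that gap between WT livers, the Bhlhe40 difference between KO SAMe and KO placebo was 0.00 (95% interval -0.56 to 0.56, adjusted p = 1). SAMe treatment and column set cannot be told apart in these KO livers. Blocked on background set it was -1.02 (adjusted p = 0.081).

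Dbp in KO SAMe was 9.48, 9.07, 8.96, 8.48 and 9.91. Replicates 1 to 4 lay below the lowest KO placebo liver at 9.49, replicate 1 only just, and replicate 5 lay within the KO placebo range, which reached 10.57. The difference was -0.75 (SE 0.23, 95% interval -1.23 to -0.26, adjusted p = 0.029). It missed the threshold without KO placebo replicate 1 (-0.69, adjusted p = 0.067), KO placebo replicate 2 (-0.62, 0.08) or KO SAMe replicate 2, 3 or 4 (-0.72, 0.055; -0.69, 0.067; -0.57, 0.1). The authors' log2 values gave -0.68 (adjusted p = 0.05, just over the threshold), and the fit without the detection filter gave an adjusted p of 0.12. The difference was -0.78 blocked on background set (adjusted p = 0.097) and -1.07 blocked on column set (95% interval -1.81 to -0.32, adjusted p = 0.12).

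Blocked on column set, where KO placebo and KO SAMe meet only through WT livers, limma called 0 of the 8 clock genes and 4 of all features, or 0.0369%, while 3 clock genes had an unadjusted p under 0.05. The 14 arrays without bright background likewise gave 0 of 8 called, 3 at an unadjusted p under 0.05, and 0.702% of features called. The Tef difference was -0.48 over all arrays (95% interval -1.05 to 0.09, adjusted p = 0.25) and 0.19 blocked on background set. Nr1d2 went likewise from -0.27 to 0.19, and neither passed in either fit. KO SAMe and KO placebo share only the ID letter G, held by KO SAMe replicate 3 and KO placebo replicates 5 and 6. With the ID letter as a term the Rora difference was -0.73 (adjusted p = 0.72) and the Bhlhe40 difference -0.67 (adjusted p = 0.82).

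**Figure D3:**
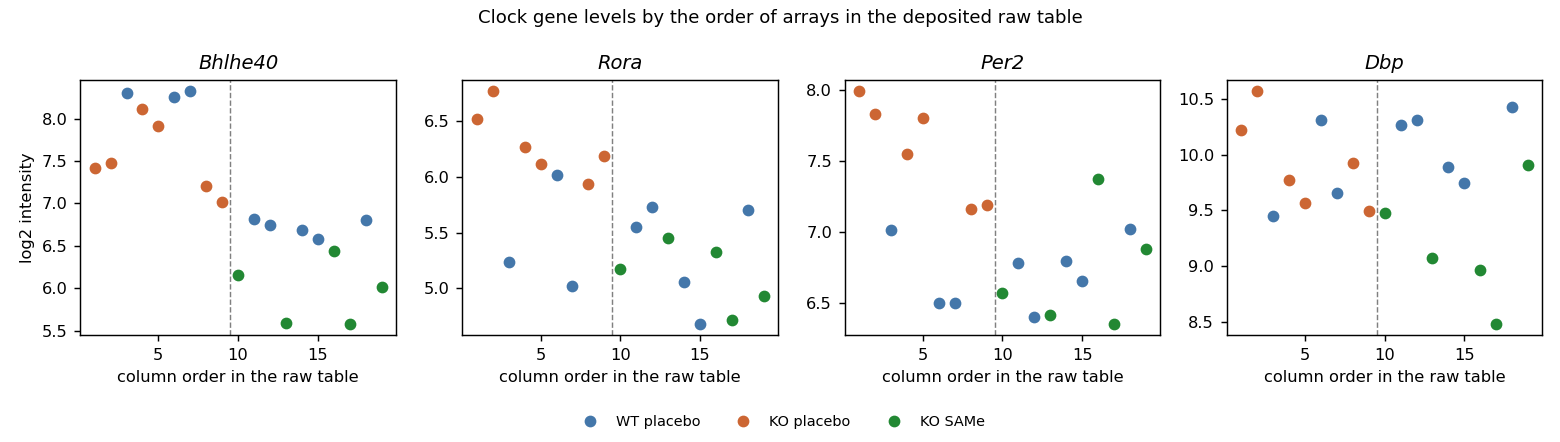
Log2 intensity of Bhlhe40, Rora, Per2 and Dbp against the order of the 19 arrays in the deposited raw table, coloured by group, with a dashed line between columns 9 and 10. Bhlhe40 of WT placebo steps from 8.25 to 8.32 before the line to 6.58 to 6.81 after it, while Per2 of WT placebo, at 6.50 to 7.01 before and 6.40 to 7.02 after, does not.

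KO SAMe was last compared with WT placebo, which asks how far treated KO liver stood from WT liver. Bhlhe40 fell by 2.56-fold and Dbp by 1.77-fold, and the other 6 clock genes did not pass the test. Of all features 17.6% were called in this comparison and 8.09% were called lower, against 2 of 8 clock genes. Rora and Per2, which differed between KO placebo and WT placebo, had 95% intervals of -0.65 to 0.14 and -0.34 to 0.36 here. The WT placebo livers are those of the first comparison, so the comparisons are not independent.

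Bhlhe40 in KO SAMe, at 5.58 to 6.44, lay below every WT placebo liver, the lowest of which was 6.58, and 6.16% of all features separated in this comparison, 2.62% with KO SAMe lower. The difference was -1.36 (SE 0.31, 95% interval -1.99 to -0.72, adjusted p = 0.0039, limma). Columns 10 to 19 hold livers of both groups, and within them the difference was -0.77 (adjusted p = 0.0058), in a fit that called 11.7% of features. Blocked on column set it was -0.77 by the same construction (95% interval -1.14 to -0.39, adjusted p = 0.0074, with 11.9% of features called). It was the same size as that of KO placebo under the same block. The p-values within columns 10 to 19 and with the column block are a description too, since the Bhlhe40 values were seen before the split. Within either column set, then, Bhlhe40 of KO livers lay wholly below that of WT livers. This is a description too, as the share of all features that separate within a column set was not computed.

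Dbp in the 8 WT placebo livers ran from 9.45 through a median of 10.08 to 10.43. Of the KO SAMe livers 3 lay below that range, and replicates 1 and 5, at 9.48 and 9.91, lay inside it. The difference was -0.83 (SE 0.22, 95% interval -1.28 to -0.37, adjusted p = 0.012, limma). It was -0.83 after blocking on the background set (adjusted p = 0.014, with 17.8% of features called), -0.91 on the arrays without bright background (adjusted p = 0.0066) and -0.95 blocked on column set (adjusted p = 0.012). Tef, the other PAR bZIP factor measured, differed by -0.40 (95% interval -0.94 to 0.14, adjusted p = 0.32).

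Per1 differed by -0.49 (95% interval -0.97 to -0.01, adjusted p = 0.16), Nr1d1 by 0.26 (-0.27 to 0.8) and Nr1d2 by -0.29 (-0.67 to 0.09). Placed in order of group mean, Rora and Per2 were highest in KO placebo with WT placebo and KO SAMe not differing beyond their spread. Dbp was lowest in KO SAMe with WT placebo and KO placebo not differing beyond theirs. Nr1d1, Nr1d2 and Tef kept no order among the 3 groups beyond the spread.

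How the clock genes varied together among livers of 1 group was then described within WT placebo, with Dbp as the reference in place of Arntl, a choice made after the data were seen. Nr1d1 had a Pearson r with Dbp of 0.85 (exact permutation p = 0.011, adjusted over 7 pairs 0.076) and a Spearman rho of 0.79 (p = 0.025, adjusted 0.13) over n = 8 livers. Rora had a Pearson r of 0.78 (exact permutation p = 0.027, adjusted 0.094) and a rho of 0.75 (p = 0.038, adjusted 0.13). None of the 7 pairs passed the adjustment. The lowest Nr1d1 values, 4.43 in replicate 1 and 4.34 in replicate 6, were not detected above background. Without the 2 livers farthest from the median of Dbp, r was 0.86 for Nr1d1 and 0.93 for Rora. On the 7 WT arrays without bright background r was 0.79 and 0.90.

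The other 5 genes had r with Dbp from -0.62 for Per1 (exact permutation p = 0.084) to 0.09 for Tef (exact permutation p = 0.82). Tef and Nr1d2 depended on the livers used. The r of Tef was 0.71 on the 7 WT arrays without bright background (exact permutation p = 0.087, adjusted 0.2), with a rho of 0.83 (p = 0.03, adjusted 0.093), and 0.63 without the 2 livers farthest from the median of Dbp (exact permutation p = 0.17). Nr1d2 had an r of -0.32 over all 8 WT livers (exact permutation p = 0.47), 0.40 on the 7 arrays (exact permutation p = 0.36) and 0.80 without the 2 farthest livers (exact permutation p = 0.083). In the 6 KO placebo livers r with Dbp was 0.79 for Rora (exact permutation p = 0.062) and 0.26 for Nr1d1 (exact permutation p = 0.61). WT livers with high Dbp, replicates 2, 4, 5 and 8 at 10.27 to 10.43, were also the 4 highest for Rora at 5.55 to 6.02 and the 4 highest for Nr1d1 at 5.36 to 5.72. In Bhlhe40 these 4 livers did not group together, since replicate 2 stood at 8.25 and the others at 6.74 to 6.81.

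**Figure D4:**
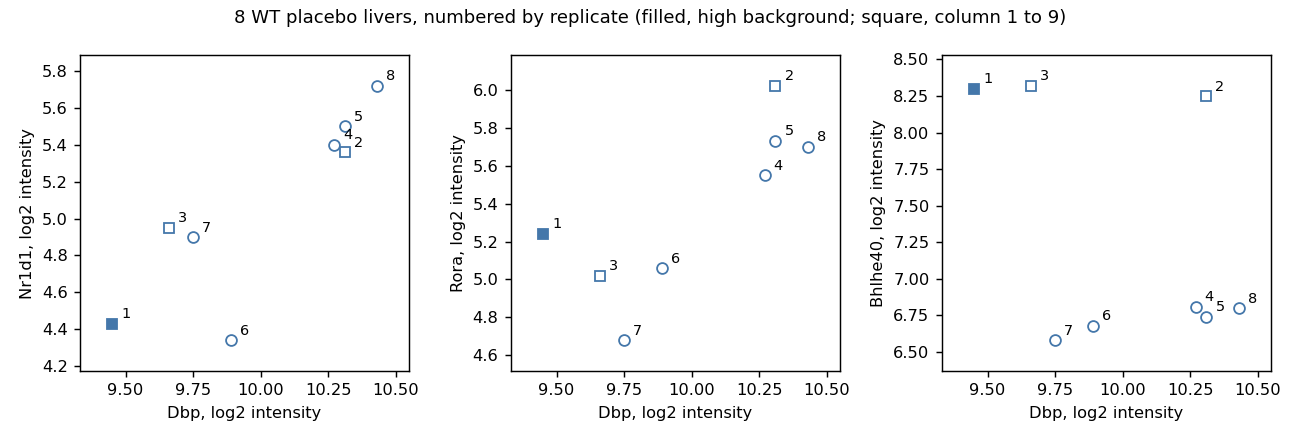
Log2 intensity of Nr1d1, Rora and Bhlhe40 against that of Dbp in the 8 WT placebo livers, numbered by replicate, with the bright-background array filled and columns 1 to 9 as squares. Nr1d1 and Rora are high in the livers with Dbp of 10.27 or more, and Bhlhe40 falls into 3 livers of 8.25 or more and 5 of 6.81 or less at any Dbp. Nr1d1 was not detected in replicates 1 and 6.

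The rest of the clock pathway was read from 4 lists. Among 11 other core loop and output factors only Clock, Cry2 and Ciart were measured. Clock, the partner of ARNTL, rose in KO placebo against WT placebo by 0.58 on the log2 scale (adjusted p = 0.0023) and by 0.68 blocked on background set (adjusted p = 0.0037), and differed by 0.49 blocked on column set (adjusted p = 0.051). Ciart, a repressor of CLOCK and ARNTL, differed by -0.96 between KO SAMe and KO placebo (adjusted p = 0.075), and Cry2, a core repressor, by -0.26 (adjusted p = 0.16). No gene of this list passed in KO SAMe against KO placebo or against WT placebo.

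Of 21 clock protein modifiers 15 were measured, with 4 rising and 1 falling in KO placebo against WT placebo, or 33.3% called beside 40.2% of all features. Gsk3b, a kinase of several clock proteins, rose by 0.57 (adjusted p = 0.00023) on its brighter probe and differed by 0.12 on the other, and Csnk2a1, a casein kinase subunit, rose by 0.41 (adjusted p = 0.034, and 0.27 blocked on background set). Csnk1e, a casein kinase that phosphorylates PER, rose at least 1.2-fold, a lower bound because it was detected on 3 of 8 WT arrays (adjusted p = 0.038). Csnk1e missed the threshold blocked on background set (adjusted p = 0.059) and with the authors' values (adjusted p = 0.076), and its other probe gave 0.20 (adjusted p = 0.092 over probes). Tipin, the partner of TIMELESS at replication forks, fell by 0.95 (adjusted p = 7.8e-07).

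SAMe treatment of KO mice went with 1 modifier risen and 2 fallen, or 20% called beside 18.5% of all features. Usp2, a deubiquitinase whose transcript is itself rhythmic in liver, fell by 1.50 on the log2 scale (adjusted p = 0.016, and 0.077 blocked on background set). Gsk3b fell by 0.59 (adjusted p = 0.0023) on its brighter probe and differed by 0.10 on the other, and Tipin rose by 0.41 (adjusted p = 0.025, and 0.16 with the block). Against WT placebo, KO SAMe livers had lower Usp2 (-1.20, adjusted p = 0.039, and 0.12 with the authors' values) and Tipin (-0.54, adjusted p = 0.0025). Csnk1d, the close relative of Csnk1e, was higher in the same comparison by 0.55 on its brightest probe (adjusted p = 0.015), while its other probes gave 0.47, 0.13 and 0.00. Csnk1e rose there by at least 1.32-fold (adjusted p = 0.017, and 0.051 without bright-background arrays), and its other probe gave 0.13. The modifiers thus gave 2 risen and 2 fallen, or 26.7% called beside 17.6% of all features.

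Of 20 rhythmic liver targets 16 were measured. In KO placebo against WT placebo 5 rose and 5 fell, beside 40.2% of all features called. Cdkn1a, the cell cycle inhibitor p21, was at least 2.14-fold higher on its brighter probe, which no WT array detected (adjusted p = 2.4e-06), and its other probe gave 0.60 on the log2 scale (adjusted p = 0.00035 over probes). Cirbp, a cold-inducible RNA-binding protein gene, fell by 0.87 (adjusted p = 0.00017), Elovl3, a fatty acid elongase gene, fell by 0.73 (adjusted p = 0.0014) and Pnpla2, which encodes adipose triglyceride lipase, rose by 0.81 (adjusted p = 0.0015). Between KO SAMe and KO placebo 2 rose and 1 fell, or 18.8% called beside 18.5% of all features. Cirbp rose by 0.98 (adjusted p = 0.0011) and Cyp7a1, the rate-limiting enzyme of bile acid synthesis, rose by 1.03 (adjusted p = 0.012, and 0.1 blocked on background set). Noct, a rhythmic gene also known as nocturnin, fell by 1.68 (adjusted p = 0.0028) on its brighter probe, with -0.38 on the other and an adjusted p of 0.068 with the block.

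Per1 also belongs to a list of 14 glucocorticoid-responsive genes, of which 12 were measured. In KO SAMe against KO placebo all 12 were lower, from -1.32 for Dusp1 to -0.07 for Zbtb16, with a median of -0.37. Of these, 3 passed the test, Per1 included, beside 18.5% of all features called and 7.69% called lower. With the background block 10 of the 12 were lower, with the column block 10, and on the arrays without bright background 9. With the background block Per1 and Tsc22d3 no longer passed and 1 gene of the list, Errfi1, did (adjusted p = 0.029). Tsc22d3, which encodes the glucocorticoid-induced leucine zipper GILZ, fell by 1.04 (adjusted p = 0.0048, and 0.13 blocked on background set), and Errfi1, a feedback inhibitor of EGF receptor signalling, fell by 0.66 (adjusted p = 0.013). Dusp1, a MAP kinase phosphatase, differed by -1.32 (adjusted p = 0.083) and Angptl4, an inhibitor of lipoprotein lipase, by -0.83 (adjusted p = 0.088). In KO placebo against WT placebo 3 genes of this list rose and 1 fell, or 33.3% called beside 40.2% of all features. Tsc22d3 rose by 1.38 (adjusted p = 2.2e-05), Fkbp5 by 0.66 (adjusted p = 0.034) and Mt2 at least 1.67-fold (adjusted p = 0.015), and Sgk1 fell by 0.46 (adjusted p = 0.043). With the background block Fkbp5 and Mt2 no longer passed (adjusted p = 0.084 and 0.16), and Sgk1 missed the threshold with the authors' values (adjusted p = 0.06). The other Tsc22d3 probes gave 0.47 and 0.25 in that comparison. In KO SAMe against KO placebo they gave -0.46 and -0.29 (adjusted p = 0.1 over probes for each).

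KO SAMe against WT placebo gave 0 risen and 2 fallen in the glucocorticoid-responsive list, or 16.7% called beside 17.6% of all features. Dusp1 fell by 2.14 (adjusted p = 0.0042) and Sgk1, a serum- and glucocorticoid-induced kinase gene, by 0.88 (adjusted p = 0.0024). The rhythmic targets gave 2 risen and 2 fallen, or 25% called beside 17.6% of all features. Cdkn1a rose at least 1.56-fold on its brighter probe (adjusted p = 0.0015) and Leo1 by 0.48 (adjusted p = 0.012). Elovl3 fell by 0.54 (adjusted p = 0.039, and 0.085 blocked on column set). Gys2 fell by 0.75 (adjusted p = 0.049) but missed the threshold with the authors' values (adjusted p = 0.083). The other Gys2 probe gave -0.73 (adjusted p = 0.053 over probes). The other Cdkn1a probe gave 0.12 on the log2 scale (adjusted p = 0.59 over probes). In KO SAMe against KO placebo the clock genes' median of -0.81 thus stood beside -0.26 for the other core factors, -0.02 for the modifiers, 0.01 for the rhythmic targets and -0.37 for the glucocorticoid-responsive genes. The clock genes and the lists were chosen with earlier results of these data known. Differences between list medians are therefore a description and were not tested. Blocked on background set the median of the clock genes was -0.52, beside -0.30, -0.08, -0.05 and -0.45 for the same 4 lists. Blocked on column set it was -0.54, beside -0.28, 0.03, -0.04 and -0.28, and no gene of these lists passed in that fit.

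**Figure D5:**
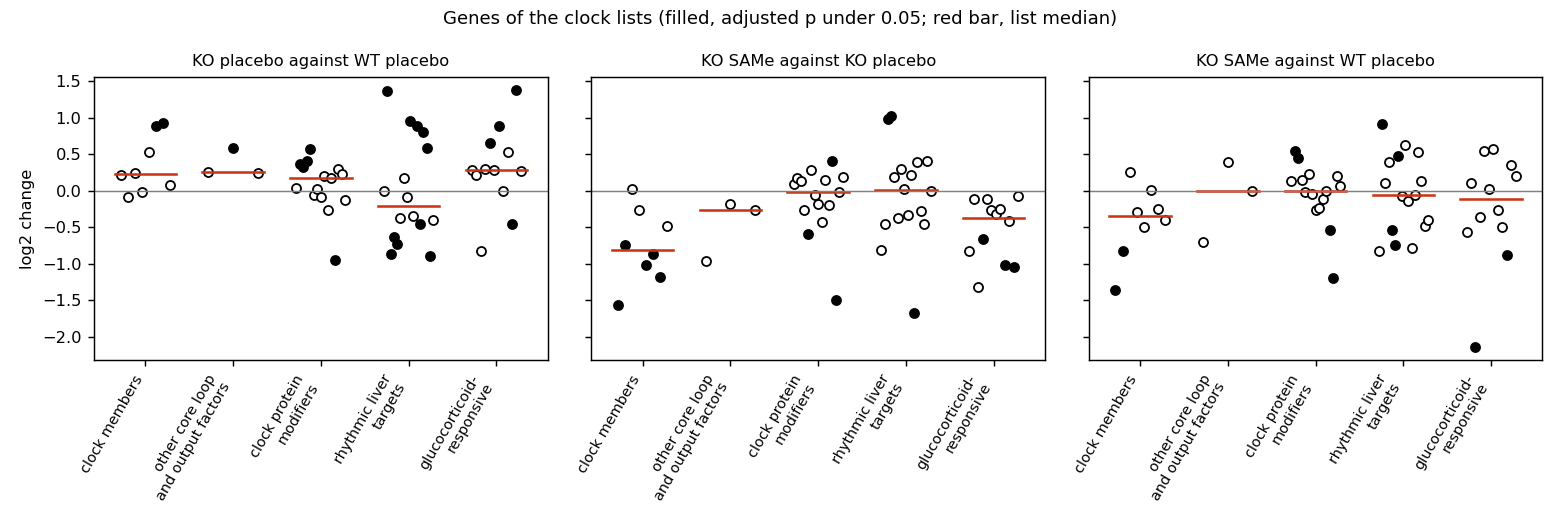
Log2 difference of each measured gene of the 5 clock-related lists in the 3 comparisons, filled where the adjusted p was under 0.05, with the list median as a red bar. In KO SAMe against KO placebo the clock genes have a median of -0.81 with 5 filled points below 0, and the rhythmic liver targets have a median of 0.01. The lists were chosen with earlier results of these data known, and their medians were not tested against each other.

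Marker genes of other liver cells moved beside these values in part. The ranges are again of the log2 of summed intensities, for WT placebo, KO placebo and KO SAMe in that order. The 8 endothelial markers measured had 10.72 to 11.26, 10.39 to 11.19 and 9.96 to 10.84. Of these, 2 fell in KO SAMe against KO placebo and 2 fell in KO SAMe against WT placebo. The 6 stellate cell markers measured had 10.41 to 11.00, 10.86 to 11.39 and 10.71 to 11.18. Of these, 3 rose in KO placebo and 1 in KO SAMe, each against WT placebo. The 7 macrophage markers measured had 8.81 to 9.70, 8.68 to 9.37 and 8.61 to 9.40, and 1 of them fell in KO placebo against WT placebo. The 4 cholangiocyte markers measured had 6.56 to 7.36, 7.17 to 7.66 and 6.99 to 8.45, and 1 of them rose in each KO group against WT placebo. The 2 lymphocyte markers measured had 5.32 to 5.89, 5.26 to 5.6 and 5.25 to 5.56, and 1 of them fell in each KO group against WT placebo. In KO placebo against WT placebo 2 endothelial markers rose and 2 fell, and 3 hepatocyte markers rose and 1 fell. Between KO SAMe and KO placebo 1 hepatocyte marker rose and 2 fell. Of all features 40.2% were called in KO placebo against WT placebo, 18.5% in KO SAMe against KO placebo and 17.6% in KO SAMe against WT placebo. The part of these cell types in the clock gene values was not tested.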

How the data were processed

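Liver RNA of 19 mice was measured on 1-colour Illumina arrays, biotin-labelled per the labels' protocols. The authors deposited mean bead intensity for 45281 probes with a detection p-value each, and log2 values for 17592 probes. Recomputing the deposited log2 values from the raw intensities gave a largest difference of 0, so they are quantile-normalized log2 raw signals of probes with a detection p-value under 0.01 on at least 1 array. The sources used here name no scanner.

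The labels' genotype and treatment set the groups. Replicates are animals with separate IDs. Background was removed by normexp (offset 16, background inferred through detection p-values) in limma 3.58.1 under R 4.3.3. Quantile normalization, which hides a shift of most genes in 1 direction, and log2 followed. Probes with a detection p-value under 0.05 on at least 5 arrays were kept (14295 probes). Each gene was read by its probe with the highest mean, giving 8529 named genes and 2302 unnamed probes, and precision is limited by how many arrays there are. A called gene seen on fewer than 50% of arrays in its lower group has its fold given as a lower bound. One limma fit over all arrays gave the 3 comparisons, two-sided, with Benjamini-Hochberg adjustment, and was tested on simulated data.

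The clock genes, the lists and the tests were chosen with earlier results of these data known. All listed clock genes were described, and for each other list up to 4 measured genes with the largest moderated statistic per comparison were named. Correlations planned against Arntl could not be made, as it had no probe, and Dbp took its place after the data were seen, with exact permutation tests. Alternatives covered background correction, scaling, the detection filter, the authors' values, probe choice, the background set, the ID letter, the column set (added after the data were seen) and each array left out in turn. Start-site windows came from RefSeq on GRCm38.p6.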

Additional observations from a re-analysis of the deposited data

How the results depend on the processing

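The fall of Bhlhe40 and Dbp in KO SAMe against WT placebo and the rise of Rora and Per2 in KO placebo against WT placebo kept their direction and side of the threshold with the authors' values, both other background corrections, the background block and the column block, and with any 1 array left out. Without the detection filter, where 40813 features were tested, Dbp in KO SAMe against WT placebo missed the threshold (-0.83, adjusted p = 0.06). The 2 KO placebo arrays left without bright background, the 1 WT array in the bright-background set, which is assumed to vary like the others, and the ID letters, of which 1 held all WT arrays, limit what those fits can show. No paired analysis was possible because the labels give animal IDs and no replicate numbers shared between groups.

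For KO placebo against WT placebo, the main counts of 4359 features and 2 clock genes became 1979 and 0 without bright-background arrays and 54 and 0 with the ID letter as a term. The clock gene count was 4 after scaling by the median of all probes and 4 (3 risen, 1 fallen) on the bright-background arrays alone, against 1 WT array. For KO SAMe against KO placebo, 2000 features and 5 clock genes became 1003 and 1 with the background block, 76 and 0 without bright-background arrays, 1 and 0 with the ID letter and 4 and 0 with the column block. Features called were 3355 (202 risen, 3153 fallen) scaled to the median of all probes, 3492 (2608 risen, 884 fallen) scaled to the median of probes past the filter and 1268 without the filter. For KO SAMe against WT placebo, 1904 features and 2 clock genes became 1189 and 1 without the filter. Leaving out 1 array gave 3871 to 4436, 1373 to 2209 and 1213 to 2064 features, the last range lowest without KO SAMe replicate 2, and 2 to 3, 4 to 5 and 2 to 2 clock genes. Scaling to the median of all probes moved the median feature by 0.18 in KO placebo against WT placebo (4012 risen, 988 fallen) and by -0.21 in KO SAMe against KO placebo. Scaling to the probes past the filter moved it by -0.20 (1786 risen, 4589 fallen) and 0.16. Per1 passed in KO placebo against WT placebo without WT placebo replicate 1 (0.66, adjusted p = 0.011), KO placebo replicate 5 (0.62, 0.037) or KO SAMe replicate 4 (0.53, 0.041). It also passed scaled to the median of all probes (0.93, 0.0031) or of probes past the filter (0.55, 0.029), and in a limma fit of only the 2 groups compared (0.53, 0.035). Of 33 alternatives for Per1 these 6 passed, and 2 turned its direction.

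Directions turned as follows, as log2 changes, and the cause was not tested. In KO placebo against WT placebo, with the ID letter, Bhlhe40 was -1.05, Ciart -1.60, Cry2 -0.02, Csnk1e -0.14, Csnk2a1 -0.29, Per1 -0.96, Per2 -0.52 and Tef -1.11. With the background block Bhlhe40 was -0.23 and Tef -0.46. With the column block, and in columns 1 to 9 alone, Bhlhe40 was -0.77 and Dbp 0.12. On bright-background arrays alone, against that 1 WT array, Bhlhe40 was -0.57, Dbp 0.58, Per1 -0.20 and Tef -0.20, and without them Bhlhe40 was -0.06, Ciart -0.29 and Tef -0.59. Scaled to the median of all probes Nr1d2 was 0.29. In KO SAMe against KO placebo, with the ID letter, Hdac3 was -0.06, Per2 0.19 and Tef 0.33. With the background block Nr1d1 was -0.24, Nr1d2 0.19 and Tef 0.19, and with the column block Bhlhe40 was 0.00, Nr1d1 -0.24 and Nr1d2 0.37. Without bright-background arrays Mat1a was -0.07, Nr1d1 -0.09, Nr1d2 0.01 and Tef 0.29. Scaled to the median of all probes Hdac3 was -0.11, Mat1a -0.11, Nr1d1 -0.34 and Tipin -0.02. In KO SAMe against WT placebo, Per2 was -0.32 with the ID letter, -0.01 with the column block and in columns 10 to 19, and -0.04 and -0.05 under the median scalings. Cry2 was 0.01 with the background block and without bright-background arrays. With 1 array left out, KO placebo against WT placebo ran from -0.03 to 0.29 for Tef, -0.21 to 0.00 for Dbp and -0.11 to 0.11 for Nr1d2. KO SAMe against KO placebo ran from -0.24 to 0.25 for Nr1d1, and KO SAMe against WT placebo from -0.15 to 0.10 for Per2 and -0.05 to 0.04 for Cry2. Of the correlations with Dbp, Nr1d2 was 0.38 and Per2 0.53 in KO placebo and 0.40 and 0.24 on WT arrays without bright background. Without the 2 farthest WT livers Bhlhe40 was 0.39, Nr1d2 0.80, Per1 0.15 and Per2 0.05.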

Other observations

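The named genes whose values followed Dbp most closely over the 19 arrays, as deviations from their own group means, were not the other clock genes. Of the 10830 features correlated, unnamed probes and genes with provisional symbols (Rik, Gm or LOC) were passed over in choosing those named here. The highest Pearson correlations among the rest were 0.85 for Hs3st3b1, a heparan sulfate sulfotransferase gene, and 0.85 for Slc38a3, a glutamine transporter gene of liver. Tgfbr2, the type II TGF-beta receptor gene, had 0.85, Nup210, a nuclear pore gene, 0.83, and Ik 0.83. Rora reached 0.57, Tef 0.42, Nr1d1 0.28 and Per2 0.22, while Nr1d2 at 0.03, Per1 at 0.02 and Bhlhe40 at -0.15 lay near 0. The arrays differ in background and column set, so these values are a description over 19 arrays and carry no test.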
